A study of Mus musculus with 40 samples.

Results

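Gene expression along the length of the small intestine was compared between its ends after small bowel resection (SBR). The comparison was the duodenum of 4 SBR mice given vehicle minus the post-anastomotic ileum of 4 SBR mice given vehicle, which are 8 of the 40 libraries of the study. The same difference in sham-operated mice given vehicle (3 duodenal and 3 ileal libraries) served as the reference, and the question was which regional differences remained, narrowed or widened once the bowel between the segments had been removed. The libraries were chosen by their labels for segment, surgery and treatment, and no measured value entered that choice. All mice were C57BL/6 males, 8 weeks old per the labels. The labels give the extent of resection as 50 to 60% of the small bowel, and the study's methods state a larger extent. Sham surgery was a transection of the distal small bowel followed at once by re-anastomosis. Both groups were fed a liquid diet, received vehicle daily for 7 weeks starting 3 weeks after surgery, and were therefore sampled at 10 weeks. Another pair of groups, the duodenum and ileum of SBR mice given WUSTL0717, a gut-restricted agonist of the liver X receptors (LXR), at 30 mg/kg (4 and 4 libraries), entered the filter and the variance estimate of the fit and was otherwise used only where named. The labels do not say whether a duodenum and an ileum came from the same mouse, so p-values measure the spread between these samples. RNA was depleted of ribosomal RNA and sequenced, and values are log2 TPM (transcript abundance scaled to a common total per library) after batch correction. Read totals did not come with the values, so the depth behind each value is unknown. Of 15958 genes, 15923 had a mean of at least 1 over the 22 intestinal libraries and were tested. A difference is given as duodenum minus ileum in log2 TPM, so positive values mean more transcript in the duodenum, and a gene passed the test at a limma adjusted p under 0.05. *Onecut2*, *Gata6*, *Osr2*, *S100g*, *Nr1h4*, *Nr0b2*, *Slc51a*, *Slc23a1*, *Mttp*, *Dgat1*, *Slc36a1*, *Cyp2b10*, *Mbl2*, *Rap1gap*, *Gltpd2* and *Gm34777* were chosen after their values were seen.

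The duodenum and the ileum share a lining of absorptive enterocytes, goblet cells, enteroendocrine cells and crypts but divide the work of absorption. The duodenum receives bile and pancreatic juice, is the main site of iron, calcium and folate uptake and of the start of fat digestion, and carries Brunner's glands in its submucosa. The ileum reclaims bile acids and vitamin B12, holds the most Paneth cells, and secretes hormones that slow transit. Transcription factors such as GATA4 and PDX1 maintain the proximal program. When the middle of the small bowel is lost, the remaining segments are known to adapt by growing and by taking over part of the absorptive load.

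The segments carried most of their defining markers. In the SBR libraries, the proximal markers *Pdx1* and *Slc40a1* and the distal markers *Slc10a2*, *Fabp6*, *Cubn*, *Slc34a2*, *Nts* and *Pyy* separated duodenum from ileum without overlap, and the same held in sham. Other proximal markers were less uniform. *Cybrd1* (2.59) and *Gip* (1.64) were higher in the duodenum after SBR, but *Gata4* did not pass in sham. *Sct* lay toward the ileum after SBR (-0.75, limma adjusted p = 0.0127). *Lct* overlapped after SBR (1.27, limma adjusted p = 0.0901) and lay toward the ileum in sham. Over all tested genes, whether or not they passed the test, the segments did not overlap for 43.4% after SBR and for 37.9% in sham. The libraries also differed in composition. Structural and small RNAs (905 genes, among them 7SK) took between 23.9% and 60.3% of TPM in SBR duodenum and between 17% and 26.3% in SBR ileum, compared with between 29.6% and 62.4% in sham duodenum and between 22.6% and 29.3% in sham ileum. The transcript *Gm23935* alone took between 4.61% and 46.4% in SBR duodenum and between 3.81% and 8.94% in SBR ileum. These shares were computed from batch-corrected values and are approximate. The median difference over all tested genes was -0.976 after SBR and -0.519 in sham, a change of -0.444, and each result below is to be read relative to these medians. Genes of Brunner's glands and gastric mucous cells averaged 6.98, 6.68, 0.35 and 2.60 log2 TPM in the SBR duodenal libraries 1 to 4, between 6.79 and 7.55 in sham duodenum, and between -0.25 and -0.02 in all ileal libraries. Genes of the exocrine pancreas averaged between 1.62 and 6.24 in SBR duodenum, between 2.95 and 6.74 in sham duodenum, and between -0.14 and 0.19 in the ileum. SBR duodenum library 3 thus held almost no Brunner's gland transcript, and 1 ileal library (SBR ileum 2) listed several duodenal genes above their level in the other ileal libraries, which is given beside the genes concerned. What part of any result these differences make up was not tested. In bulk tissue, fewer cells of a type and less RNA per cell cannot be told apart.

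**Figure D1:**
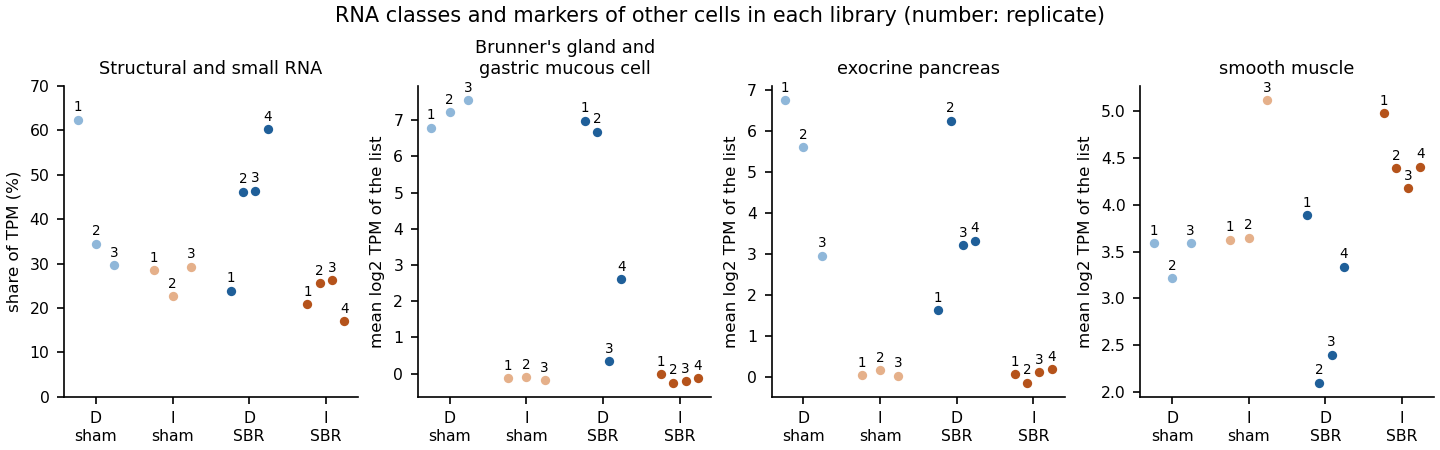
RNA classes and markers of other cells in each vehicle library: the approximate share of TPM taken by structural and small RNAs (%), and the mean log2 TPM of the genes of Brunner's gland and gastric mucous cells, exocrine pancreas and smooth muscle. Each point is 1 library and carries its replicate number (D, duodenum; I, ileum), and SBR duodenum library 3 stands at 0.35 for Brunner's gland genes whereas the sham duodenal libraries lie between 6.79 and 7.55.

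After SBR, most genes differed between the ends of the intestine. Of 15923 genes, 9068 passed the test (56.9%), 1078 with more transcript in the duodenum (6.77%) and 7990 with more in the ileum (50.2%). In sham, 2331 genes passed (14.6%), 610 higher in the duodenum (3.83%) and 1721 higher in the ileum (10.8%). Without sham ileum library 2 the sham count was 1260. The direction of these calls depended on the scale. When each library was centred on its median, 4948 genes passed after SBR (31.1%), 2637 of them higher in the duodenum (16.6%) and 2311 higher in the ileum (14.5%). In sham 2020 passed after centring (12.7%), 1177 higher in the duodenum (7.39%) and 843 higher in the ileum (5.29%). The share of SBR calls higher in the duodenum was accordingly 11.9% as deposited and 53.3% after centring, and in sham it was 26.2% and 58.3%. The SBR comparison had 4 libraries per segment and a median standard error of 0.413, whereas the sham comparison had 3 and a median standard error of 0.477.

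Regional differences present in sham were mostly still present after SBR. Of the genes that passed in sham, 1962 also passed after SBR with the same sign, which is 84.2% of the sham calls and 21.6% of the SBR calls. Leaving out single libraries moved this count between 1109 and 2408. They comprised 477 genes higher in the duodenum and 1485 higher in the ileum, and 1700 of them had a difference of at least 1 in each comparison. With centring the shared genes numbered 1465, or 72.5% of the sham calls and 29.6% of the SBR calls. Across the 15923 genes, the differences in sham and after SBR, which share no library, correlated with a Pearson r of 0.706 and a Spearman rho of 0.59, given as a description because genes are not independent.

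On the deposited scale, more genes stood further apart after SBR than closer together. The absolute difference was larger after SBR in 71.1% of genes. On this scale the median over all genes also moved, from -0.519 to -0.976, and the share was not computed after centring. Of the genes that passed in sham, 1190 were closer after SBR and 1141 further apart (1141 closer and 879 further apart after centring), a choice that favours large sham values. The reverse choice, genes that passed after SBR, gave 8010 smaller and 1058 larger in sham (4273 and 675 after centring). The 8895 genes that differed between duodenum and ileum in WUSTL0717-treated mice (55.9%, of which 7.13% of all genes higher in the duodenum and 48.7% higher in the ileum), a choice in which the vehicle libraries enter through the shared variance of the fit but not through the difference, gave 7296 genes with the larger difference after SBR and 1599 with the larger difference in sham. Their median absolute difference was 1.42 after SBR and 0.788 in sham. After centring it was 1.18 and 0.743, with 3560 genes larger after SBR and 1177 larger in sham. Both choices other than that made in sham use mice that had undergone SBR.

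**Figure D2:**
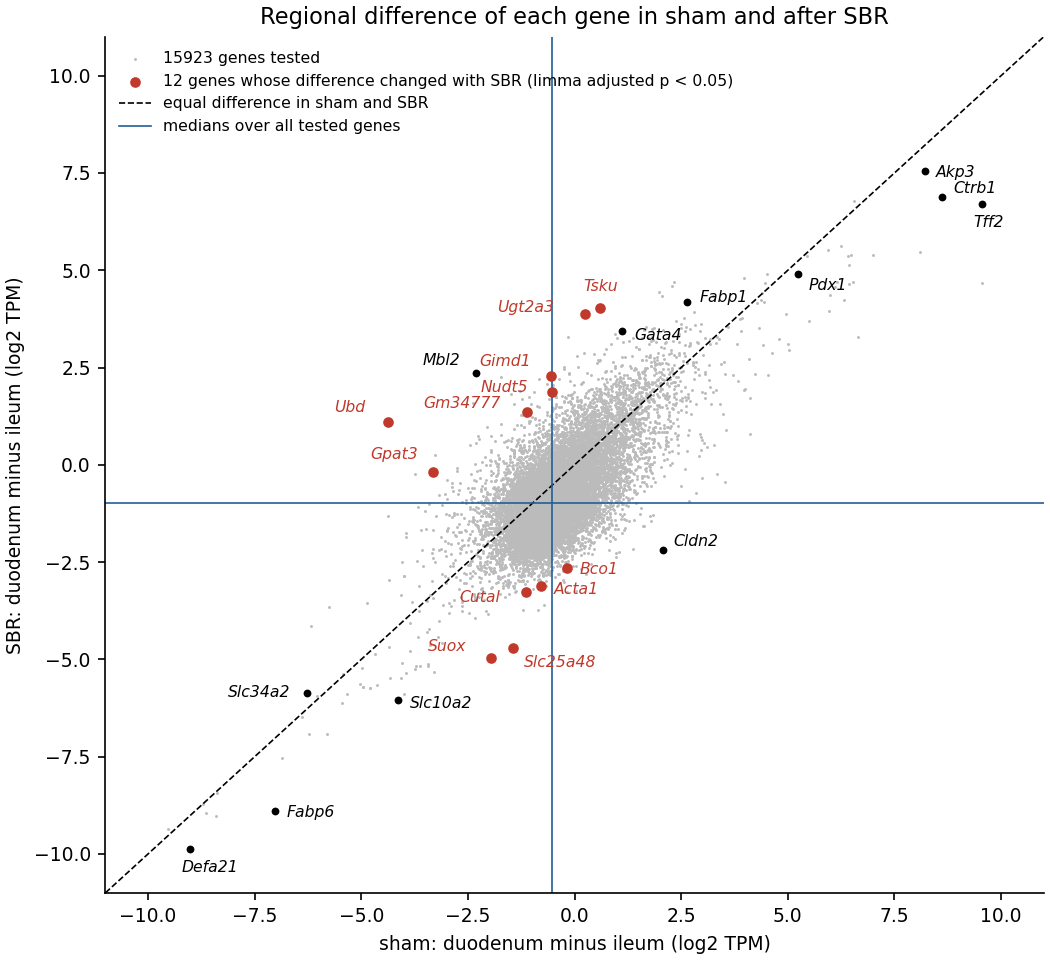
The regional difference of each of the 15923 tested genes in sham (horizontal axis) and after SBR (vertical axis), both as duodenum minus ileum in log2 TPM. The dashed line marks equal differences, the blue lines mark the medians of -0.519 and -0.976, and the red points are the 12 genes whose difference changed with SBR at a limma adjusted p under 0.05.

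The duodenal factors *Pdx1* and *Gata4* were higher in the duodenum after SBR. Of 17 regional transcription factors tested, 5 were higher in the duodenum after SBR, 9 were higher in the ileum, a share near the 50.2% of all genes, and 3 did not pass (7, 5 and 5 after centring). In sham, 4 and 6 passed by direction, and 10 passed in both comparisons with the same sign. *Pdx1* (chromosome 5, 147269959 to 147275848 in GRCm38), a homeobox factor of duodenum and pancreas, was 4.81, 4.37, 4.26 and 4.42 log2 TPM in SBR duodenum and -0.77, 0.47, -0.66 and -0.82 in SBR ileum. No ileal library reached the duodenal range, and SBR ileum 2 was the highest of the ileum. The difference was 4.91 (SE 0.26, limma adjusted p = 9.62e-12) after SBR and 5.25 in sham. *Onecut2*, another proximal homeobox factor, differed by 4.23 after SBR and 4.38 in sham, and *Gata6* differed by 1.33 and 1.41.

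*Gata4* (chromosome 14, 63198922 to 63271692), a zinc finger factor whose loss is known to shift proximal enterocytes toward an ileal program, was 6.28, 6.01, 6.18 and 6.05 log2 TPM in SBR duodenum and 3.34, 3.77, 1.42 and 2.29 in SBR ileum. In sham it was 5.92, 5.76 and 6.21 in the duodenum and 4.68, 5.05 and 4.83 in the ileum. The duodenal values of both surgeries overlapped, and every SBR ileal library lay below every sham ileal library. The difference was 3.43 (SE 0.58, limma adjusted p = 9.76e-05) after SBR and 1.11 (SE 0.67, limma adjusted p = 0.256) in sham. The change of 2.32 (SE 0.89) did not pass (limma adjusted p = 0.308; exact permutation test of sham and SBR labels within each segment, two-sided, p = 0.0122). On the ileal side, *Osr2* was between -0.79 and -0.73 in all SBR duodenal libraries and 3.82, 4.14, 3.78 and 3.97 in SBR ileum, a difference of -4.69 after SBR and -4.36 in sham. For *Cdx1*, an intestinal homeobox factor, the difference after SBR was -0.79 (limma adjusted p = 0.00563) as deposited but 0.14 after centring.

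Iron, calcium and folate genes remained duodenal. Of 10 tested genes of iron and calcium absorption, 7 were higher in the duodenum after SBR, 1 was higher in the ileum and 2 did not pass (9, 1 and 0 after centring), and in sham the counts were 7, 1 and 2. Their median difference was 2.14 after SBR and 2.45 in sham. Over all genes, 6.77% were duodenal after SBR (16.6% after centring) and 3.83% in sham. *Slc40a1*, which encodes the iron exporter ferroportin, was 6.52, 6.29, 6.73 and 6.71 log2 TPM in SBR duodenum and 3.44, 3.65, 3.19 and 3.65 in SBR ileum. In sham it was 6.23, 6.59 and 6.4 in the duodenum and 1.76, 1.92 and 2.33 in the ileum. Duodenal levels overlapped between surgeries, while all 4 SBR ileal libraries lay above the 3 sham ileal libraries. The difference was 3.08 (SE 0.31, limma adjusted p = 1.84e-07) after SBR and 4.41 in sham, and the change of -1.33 did not pass (limma adjusted p = 0.297). *Cybrd1*, the duodenal ferric reductase, differed by 2.59 and 3.43, and *S100g*, which encodes the calcium carrier calbindin-D9k, by 5.39 and 6.48. *Slc46a1*, the proton-coupled folate transporter, was between 7.29 and 7.55 in SBR duodenum and between 2.26 and 3.17 in SBR ileum, a difference of 4.79 after SBR and 3.98 in sham.

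The largest duodenal differences after SBR belonged to enterocyte enzymes and to secreted proteins of other cells. *Akp3* (chromosome 1, 87124973 to 87127912), an intestinal alkaline phosphatase, was 7.52, 7.54, 7.33 and 7.62 log2 TPM in SBR duodenum and -1.01, 3.21, -1.23 and -1.18 in SBR ileum. SBR ileum 2 stood more than 4 log2 units above the other ileal libraries yet below the duodenum. The difference of 7.55 (SE 0.62, limma adjusted p = 8.07e-09) compared with 8.21 in sham. *Sult6b2*, a sulfotransferase family member, differed by 6.77 after SBR and 6.55 in sham (1.57 in SBR ileum 2 against between -1.30 and -1.24 in the others). *Tmprss15*, which encodes enteropeptidase, the activator of trypsinogen, differed by 4.91 and 4.52 (0.55 in SBR ileum 2 against between -0.89 and -0.86 in the others), and *Reg1*, a secreted lectin, by 5.61 and 6.25.

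*Ctrb1*, which encodes the pancreatic zymogen chymotrypsinogen B, was 3.16, 8.47, 5.30 and 5.74 in SBR duodenum and between -1.34 and -1.14 in SBR ileum, a difference of 6.88 after SBR and 8.62 in sham. Of 18 tested pancreatic genes, 15 were higher in the duodenum after SBR and 16 in sham, beside 6.77% and 3.83% of all genes. The medians of the pancreatic genes were 4.30 and 6.05. *Pnlip*, which encodes pancreatic lipase, differed by 4.65 and 6.43 and *Prss2*, a trypsinogen gene, by 5.38 and 6.99. The trypsin genes *Prss2*, *Try4* and *Try5* are near-identical copies, so that their split by uniquely aligned reads is uncertain. *Tff2*, a mucin-associated peptide of Brunner's glands and stomach, was 8.57, 8.07, 0.64 and 6.18 in SBR duodenum and between -0.95 and -0.70 in SBR ileum, and *Gkn3*, a gastric mucous cell gene, was 7.32, 6.66, -0.05 and 4.90 against between -1.01 and -0.31. The differences were 6.71 and 5.48 after SBR, compared with 9.55 and 8.10 in sham. All 6 tested genes of this group, *Muc6* (3.96 and 5.97) included, were higher in the duodenum in both comparisons, with medians of 4.31 and 7.37, but the 4 SBR duodenal libraries spanned nearly the whole range between ileum and sham duodenum.

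**Figure D3:**
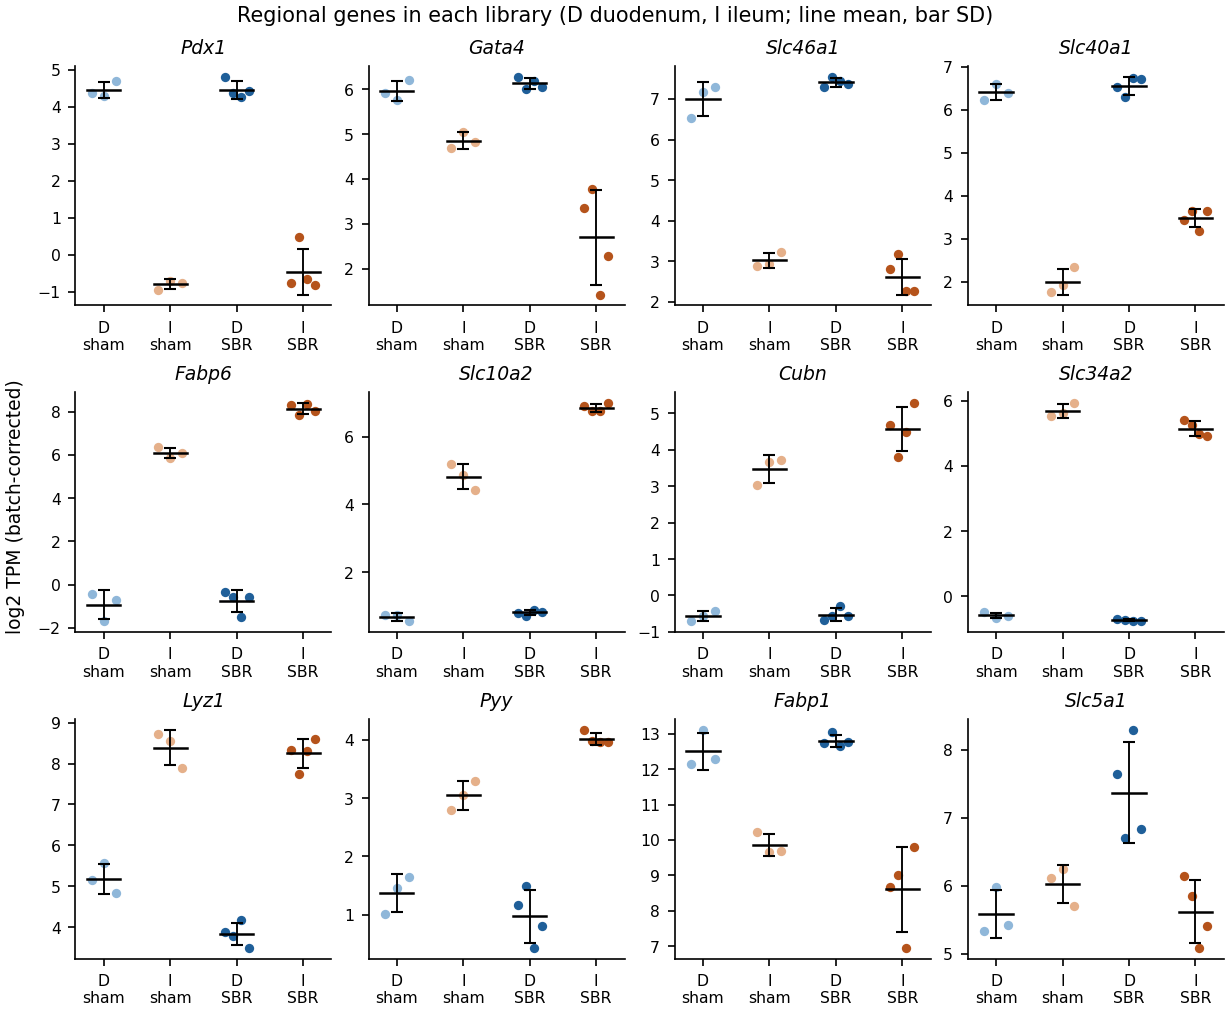
Regional genes in each vehicle library, in batch-corrected log2 TPM (D, duodenum; I, ileum; points, libraries; lines, means; bars, SD). The proximal genes *Pdx1*, *Slc46a1* and *Slc40a1* and the distal genes *Fabp6*, *Slc10a2*, *Cubn*, *Slc34a2* and *Pyy* did not overlap between the segments in either surgery, and *Gata4* in SBR ileum lay between 1.42 and 3.77.

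The bile acid carriers *Slc10a2*, *Fabp6*, *Slc51a* and *Slc51b* were higher in the ileum in both surgeries as deposited. *Slc10a2* encodes the apical sodium-dependent bile acid transporter, *Fabp6* the cytosolic ileal bile acid binding protein, and *Slc51a* and *Slc51b* the subunits of the basolateral exporter. *Nr1h4* encodes the bile acid receptor FXR, which binds as a heterodimer with RXR to pairs of the hexamer AGGTCA, classically an inverted repeat spaced by a single base. The 250 bases upstream of the RefSeq transcript start (GRCm38.p6) are printed for the transporters and the binding protein as the genes that carry bile acids through the ileal cell, with each AGGTCA, or its complement TGACCT, in capitals on the coding strand. RefSeq starts can lie some bases away from the gene ends given here. The windows lie at chr8:5105288-5105537, chr11:43601563-43601812, chr16:32487880-32488129 and chr9:65422774-65423023, all on the minus strand.
Slc10a2: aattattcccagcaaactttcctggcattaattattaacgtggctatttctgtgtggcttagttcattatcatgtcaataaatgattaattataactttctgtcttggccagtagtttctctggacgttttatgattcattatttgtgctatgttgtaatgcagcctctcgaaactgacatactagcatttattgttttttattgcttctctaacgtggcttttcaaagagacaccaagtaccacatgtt
Fabp6: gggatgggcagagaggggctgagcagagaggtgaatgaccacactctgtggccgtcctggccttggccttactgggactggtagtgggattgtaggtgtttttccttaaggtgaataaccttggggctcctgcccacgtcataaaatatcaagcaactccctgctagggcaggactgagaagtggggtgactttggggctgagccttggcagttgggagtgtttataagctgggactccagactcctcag
Slc51a: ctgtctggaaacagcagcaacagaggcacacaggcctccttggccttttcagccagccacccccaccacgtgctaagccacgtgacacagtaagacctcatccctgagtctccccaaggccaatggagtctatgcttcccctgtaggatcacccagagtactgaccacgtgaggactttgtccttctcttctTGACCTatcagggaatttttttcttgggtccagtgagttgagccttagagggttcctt
Slc51b: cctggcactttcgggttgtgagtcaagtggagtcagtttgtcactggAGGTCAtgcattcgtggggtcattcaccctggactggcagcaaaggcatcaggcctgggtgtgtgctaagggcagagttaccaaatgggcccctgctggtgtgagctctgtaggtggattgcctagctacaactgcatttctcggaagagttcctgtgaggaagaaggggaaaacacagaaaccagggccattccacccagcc

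The inverted repeat of AGGTCA with a single-base spacer, searched on both strands, occurred in none of these windows and in 2 of 32851 promoter windows of the same length over 27025 genes (0.00609%). The hexamer AGGTCA on either strand, which the repeat contains, occurred in 14% of windows. It occurred once in *Slc51a*, starting 58 bases upstream of the start, and once in *Slc51b*, starting 203 bases upstream, and not in *Slc10a2* or *Fabp6*. A match is a description of these letters and not a binding site. Only exact copies were counted, so repeats with a mismatch were not searched. Because the exact repeat is so rare, its absence from these windows says nothing about FXR binding.

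Of 8 tested genes of bile acid uptake and signaling, 5 were higher in the ileum after SBR, beside 50.2% of all genes, and 3 in the duodenum (4 and 3 after centring), and in sham 4 and 2 passed. *Slc10a2* (chromosome 8, 5083219 to 5105351) was 0.80, 0.71, 0.88 and 0.83 log2 TPM in SBR duodenum and 6.89, 6.74, 6.76 and 6.98 in SBR ileum. In sham it was 0.73, 0.74 and 0.55 in the duodenum and 5.18, 4.87 and 4.42 in the ileum. All SBR ileal libraries exceeded all sham ileal libraries, and the duodenum stayed below 1 throughout. The difference was -6.04 (SE 0.25, limma adjusted p = 1.87e-13) after SBR and -4.14 (SE 0.29, limma adjusted p = 1.42e-09) in sham. The change of -1.89 (SE 0.38) fell just outside the threshold (limma adjusted p = 0.0664).

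*Fabp6* (chromosome 11, 43596049 to 43601540) was -0.35, -0.57, -1.49 and -0.56 in SBR duodenum and 8.33, 7.87, 8.37 and 8.03 in SBR ileum, compared with -0.43, -1.69 and -0.69 and with 6.35, 5.87 and 6.08 in sham. Again the duodenal libraries overlapped between surgeries and the ileal libraries did not. The differences were -8.89 (SE 0.39) and -7.04 (SE 0.45), and the change of -1.86 did not pass (limma adjusted p = 0.248). *Nr1h4* was 5.19, 4.95, 2.88 and 4.60 in SBR duodenum and 8.19, 7.87, 7.88 and 8.59 in SBR ileum, a difference of -3.73 (limma adjusted p = 1.73e-06) against -1.20 (limma adjusted p = 0.113) in sham. Its change of -2.53 did not pass (limma adjusted p = 0.177). The exporter subunits differed by less, *Slc51a* by -2.01 after SBR and -1.67 in sham and *Slc51b* by -1.37 and -1.94. Across the alternative settings, *Slc51b* after SBR ranged from -1.54 to -0.44 and passed in 19 of 21. *Nr0b2*, which encodes the FXR-induced repressor SHP, was duodenal in both, with 3.87 and 4.97. *Fgf15* was not analysed here.

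Transcripts of the B12 receptor gene *Cubn* and of the phosphate transporter gene *Slc34a2* were likewise ileal in both surgeries. *Cubn*, which encodes the B12-intrinsic factor receptor cubilin, was between -0.69 and -0.30 in SBR duodenum and 4.69, 3.81, 4.49 and 5.28 in SBR ileum. The ileal libraries were all above the sham ileal values of 3.04, 3.67 and 3.71, and the difference was -5.10 after SBR and -4.04 in sham (change -1.06, limma adjusted p = 0.308). Its partner *Amn* differed by -1.52 and -1.76. After SBR, *Amn* ranged from -1.68 to -0.59 across the alternative settings and passed in 19 of 21. *Slc34a2*, a sodium-phosphate cotransporter, was between -0.75 and -0.69 in SBR duodenum and between 4.93 and 5.40 in SBR ileum, a difference of -5.87 (SE 0.20, limma adjusted p = 1.49e-14) after SBR and -6.27 in sham. *Slc23a1*, a vitamin C transporter, was 2.42, 1.88, 3.12 and 2.52 in SBR duodenum and 4.35, 3.18, 3.02 and 4.65 in SBR ileum, so the segments overlapped, whereas the sham values were 1.83, 2.15 and 2.13 against 6.49, 6.31 and 6.45. Its difference was -1.31 after SBR and -4.38 in sham, and the change of 3.06 did not pass as deposited (limma adjusted p = 0.107) but passed after centring (limma adjusted p = 0.0448). Over the 9 tested vitamin genes, 2 were higher in the duodenum and 5 in the ileum in each comparison (2 and 2 after centring, SBR), where 50.2% of all genes were ileal after SBR and 10.8% in sham.

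Paneth cell genes were ileal in both surgeries. All 15 that were tested were higher in the ileum after SBR, under each of the scalings tried, and 14 passed in sham. The median difference was -5.16 after SBR and -3.71 in sham. By comparison, 50.2% of all genes were higher in the ileum after SBR (14.5% after centring) and 10.8% in sham. *Lyz1*, which encodes the Paneth cell lysozyme, was 3.87, 3.78, 4.17 and 3.49 log2 TPM in SBR duodenum and 8.33, 7.74, 8.31 and 8.61 in SBR ileum. In sham the duodenum was higher, at 5.15, 5.56 and 4.84, and the ileum overlapped with SBR, at 8.71, 8.56 and 7.90. The difference was -4.42 (SE 0.35, limma adjusted p = 4.83e-09) after SBR and -3.20 in sham, and the change of -1.22 did not pass (limma adjusted p = 0.343). *Mmp7*, the protease that activates alpha-defensins in mice, differed by -5.13 and -3.44. Among alpha-defensins, *Defa21* (chromosome 8, 21025545 to 21026516) was 3.54, 1.98, 4.03 and 2.46 in SBR duodenum and 12.83, 12.42, 13 and 13.25 in SBR ileum, a difference of -9.87 (SE 0.44), against -9.02 in sham. *Defa21* had the widest difference of all genes on the deposited scale, but with a pseudocount of 0.1 *Defa20*, which was listed at 0 in 3 of the 4 SBR duodenal libraries, reached -11.99, and no alternative took *Defa21* past -10.36. Other alpha-defensins with wide differences were *Defa22* (-9.36 and -9.52), *Defa20* (-9.03 and -8.41), *Defa32* (-8.96 and -8.63) and *Defa2* (-8.72 and -8.71). All 25 tested alpha-defensin genes were higher in the ileum in both comparisons, from -9.87 to -3.75 after SBR. These genes are close copies of each other, and counts of uniquely aligned reads can divide them unevenly. Of the 15 Paneth cell genes, 6 had an unadjusted p under 0.05 for the change, all toward the ileum, and 1 did after centring and 2 after quantile normalization, which compares with 2192 of all genes as deposited (13.8%), 409 of them toward the duodenum (2.57%) and 1783 toward the ileum (11.2%).

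Of 11 tested enteroendocrine genes, 4 were higher in the duodenum and 4 in the ileum after SBR (6 and 3 after centring), compared with 5 and 3 in sham, and 7 passed in both with the same sign. Among all genes, 6.77% were duodenal and 50.2% ileal after SBR (16.6% and 14.5% after centring), and 3.83% and 10.8% in sham. *Pyy*, which encodes peptide YY of the distal gut, was 1.17, 1.49, 0.43 and 0.80 in SBR duodenum and 4.17, 3.98, 3.97 and 3.97 in SBR ileum, a difference of -3.05 (limma adjusted p = 2.95e-08) after SBR and -1.68 (limma adjusted p = 0.000887) in sham. *Nts*, which encodes neurotensin, differed by -4.77 and -3.86, and *Gip*, the incretin of the proximal gut, by 1.64 and 1.05. *Sct*, which encodes secretin, had -0.75 after SBR (0.19 after centring) and 0.20 in sham. Of the 11 genes, 0 changed their regional difference at a limma adjusted p under 0.05 and 3 had an unadjusted p under 0.05, all toward the ileum (11.2% of all genes). Over all genes, 12 (0.0754%) changed after adjustment.

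Genes of fat absorption lay further toward the duodenum after SBR than in sham. Among all genes, 6.77% were duodenal and 50.2% ileal after SBR, and 3.83% and 10.8% in sham. Of 19 tested genes of lipid absorption and chylomicron assembly, 9 were higher in the duodenum after SBR, 3 were higher in the ileum and 7 did not pass, while in sham 3 and 4 passed by direction. The median difference was 0.67 after SBR and -0.52 in sham, and the list's median change was 1.54, against -0.444 over all genes. For 12 of the 19 the change had an unadjusted p under 0.05, all toward the duodenum, where 2.57% of all genes did so, but only *Gpat3* passed after adjustment. Under the other scalings between 12 and 14 had such a p and 2 passed. The median change within the duodenum was 1.07 and within the ileum -0.36, where the medians of all genes were -0.354 and 0.0699.

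*Gpat3* (chromosome 5, 100845713 to 100899102) encodes an acyltransferase of triglyceride synthesis. It was 4.11, 3.47, 4.78 and 3.77 log2 TPM in SBR duodenum and 4.49, 4.60, 3.79 and 3.96 in SBR ileum, so the segments overlapped. In sham the duodenum, at 1.24, 2.40 and 0.92, lay below the ileum, at 4.95, 5.01 and 4.55. The difference narrowed from -3.32 (SE 0.39) in sham to -0.18 (SE 0.34) after SBR, a change of 3.14 (95% interval 2.06 to 4.21, limma adjusted p = 0.019). The sign of the remainder was not fixed, with 0.75 after centring. *Mttp*, which encodes the microsomal triglyceride transfer protein that loads fat onto apolipoprotein B, was 8.91, 8.80, 9.04 and 8.99 in SBR duodenum and 6.49, 6.88, 5.21 and 6.69 in SBR ileum. In sham it was 7.23, 8.18 and 7.11 in the duodenum and 6.95, 6.94 and 7.03 in the ileum, nearly level. The difference was 2.62 (limma adjusted p = 1.58e-05) after SBR and 0.53 (limma adjusted p = 0.396) in sham, and the change of 2.08 did not pass (limma adjusted p = 0.185). *Dgat1*, the last enzyme of triglyceride synthesis, had 1.73 after SBR and -1.07 in sham, with a change of 2.80 that passed after centring (limma adjusted p = 0.0438) but not as deposited (0.111). *Fabp1*, which encodes the liver-type fatty acid binding protein, differed by 4.18 and 2.65 and *Apoa4*, a chylomicron apolipoprotein, by 3.30 and 2.32. *Npc1l1*, the cholesterol uptake transporter, had -0.88 after SBR and -1.17 in sham as deposited, but 0.05 after SBR with centring.

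Sugar and amino acid transporters passed in both directions. Among all genes, 6.77% were duodenal and 50.2% ileal after SBR (16.6% and 14.5% after centring), and 3.83% and 10.8% in sham. Of 18 tested transporter genes, 4 were higher in the duodenum after SBR and 8 in the ileum (6 and 4 after centring), and in sham 1 and 10 passed. The medians were -0.70 and -1.11 (0.23 after SBR with centring). The change had an unadjusted p under 0.05 for 10 of them, all toward the duodenum (2.57% of all genes), with a median change of 0.98, and 0 passed after adjustment with limma (2 after centring). *Slc5a1*, which encodes the sodium-glucose cotransporter SGLT1, was 7.64, 6.71, 8.29 and 6.84 in SBR duodenum and 6.14, 5.85, 5.09 and 5.41 in SBR ileum. The sham duodenum, at 5.34, 5.99 and 5.43, lay below all SBR duodenal libraries and overlapped the sham ileum, at 6.12, 6.25 and 5.71. The difference was 1.75 (limma adjusted p = 0.000763) after SBR and -0.44 (limma adjusted p = 0.503) in sham, and the change of 2.19 (SE 0.58) did not pass (limma adjusted p = 0.173). *Slc2a5*, the fructose transporter GLUT5, had 2.00 and 0.88. *Slc36a1*, a proton-coupled amino acid transporter, was between 3.27 and 6.05 in SBR duodenum and between 3.57 and 5.38 in SBR ileum, and in sham between 2.77 and 4.42 against between 6.47 and 7.51. Its difference was 0.25 after SBR and -3.28 in sham, with a change of 3.53 (limma adjusted p = 0.074). *Slc15a1*, the peptide transporter PEPT1, had -0.84 after SBR (0.10 after centring) and -1.81 in sham.

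Brush border enzymes were mixed. Of 17, 4 were higher in the duodenum after SBR and 8 in the ileum (5 and 6 after centring), where 50.2% of all genes were ileal. In sham 3 and 9 passed, where 10.8% of all genes were ileal. The change had an unadjusted p under 0.05 for 4 of the 17, toward the duodenum (2.57% of all genes), and passed limma's adjusted test for 0. *Lct*, which encodes lactase, was 1.65, 2.85, 3.50 and 1.92 in SBR duodenum and 2.18, 0.98, 0.06 and 1.60 in SBR ileum, whereas the sham ileum was 4.21, 4.55 and 4.88. Its difference was 1.27 (limma adjusted p = 0.0901) after SBR and -1.25 in sham. *Sis*, which encodes sucrase-isomaltase, had -0.69 after SBR and -0.54 in sham, or 0.25 after SBR with centring. Of 17 genes of ion and bicarbonate transport, 3 were higher in the duodenum and 6 in the ileum (7 and 6 after centring). These counts stand beside 6.77% and 50.2% of all genes (16.6% and 14.5% after centring). *Cftr*, the chloride channel, had -0.33 after SBR (limma adjusted p = 0.403), 0.70 in sham and 0.60 after SBR with centring.

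The regional difference of 12 of 15923 genes changed with SBR at an adjusted p under 0.05, 9 of them widened, 2 narrowed and 1 turned. A gene counted as turned where both differences passed with opposite signs. All other genes were classed by which absolute difference was the larger. After centring the count was 60 (0.377%), of which 40 widened, 14 narrowed and 6 turned, and 11 of the 12 were among them. The calls did not withstand the loss of single libraries alike. Without sham ileum 1, sham ileum 2 or SBR ileum 4 only 1 gene passed, and without SBR duodenum 1 there were 229, including all 12. With the 14 vehicle libraries alone, 3 of the 12 passed.

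Among genes that widened toward the ileum, *Slc25a48* (chromosome 13, 56438355 to 56474239), a mitochondrial carrier, had the smallest p. It was 1.21, 0.99, 0.51 and 0.46 log2 TPM in SBR duodenum and 5.57, 5.12, 5.52 and 5.83 in SBR ileum, against 0.90, 0.97 and 1.28 and 2.11, 2.52 and 2.82 in sham. Only the ileum separated the surgeries. The difference went from -1.44 in sham to -4.71 after SBR, a change of -3.28 (95% interval -4.12 to -2.44, limma adjusted p = 0.000996; exact permutation p = 0.00571). *Suox* (chromosome 10, 128669894 to 128674073), which encodes sulfite oxidase, was 4.21, 3.75, 3.10 and 2.71 in SBR duodenum and 8.40, 8.35, 8.44 and 8.39 in SBR ileum, against 4.00, 4.23 and 4.66 and 6.31, 6.27 and 6.21 in sham. Its ileal values were tight within each surgery and did not overlap. The difference went from -1.96 to -4.95 (change -2.99, limma adjusted p = 0.019).

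*Bco1* (chromosome 8, 117095854 to 117133720) encodes the oxygenase that cleaves beta-carotene to retinal. It was 1.80, 1.80, 1.05 and 1.73 in SBR duodenum and 4.39, 4.04, 4.34 and 4.17 in SBR ileum, while in sham both segments lay between 1.51 and 1.90. A gene without a regional difference in sham (-0.18, limma adjusted p = 0.727) thus had a difference of -2.64 (SE 0.28) after SBR, and the change was -2.46 (limma adjusted p = 0.0277). *Cutal* went from -1.14 to -3.26 and *Acta1*, which encodes skeletal muscle alpha-actin, from -0.78 to -3.11 (limma adjusted p = 0.0434 for each change). In both, the SBR ileal libraries lay above all others. The 12 smooth muscle genes, whose mean log2 TPM ranged from 4.18 to 4.98 in SBR ileum and from 2.10 to 3.89 in SBR duodenum, ranged from 3.63 to 5.12 in sham ileum and from 3.22 to 3.59 in sham duodenum, and their part in the change of *Acta1* was not tested.

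Genes that widened toward the duodenum had lower ileal values after SBR. *Ugt2a3* (chromosome 5, 87324972 to 87337195), a glucuronosyltransferase, was 5.66, 5.72, 6.63 and 5.42 in SBR duodenum and 2.33, 1.68, 1.93 and 1.98 in SBR ileum, while the sham values were 5.21, 6.07 and 5.39 and 5.39, 5.48 and 5.09. The SBR ileum stood apart from the other 3 groups, which overlapped. The difference was 3.88 after SBR and 0.24 in sham, a change of 3.64 (SE 0.63, limma adjusted p = 0.0277). *Tsku*, which encodes the secreted proteoglycan tsukushi, was 6.76, 6.62, 7.65 and 6.66 in SBR duodenum and 3.34, 2.21, 2.92 and 3.10 in SBR ileum, and the change from 0.60 to 4.03 was 3.43 (limma adjusted p = 0.0277). *Gimd1* was 3.36, 3.36, 3.98 and 2.95 in SBR duodenum and 1.43, 1.25, 1.00 and 0.85 in SBR ileum, against between 3.07 and 4.26 in all sham libraries, with a change of 2.84 (limma adjusted p = 0.0169). *Nudt5*, a nucleotide-sugar hydrolase, went from -0.54 to 1.86 (change 2.40, limma adjusted p = 0.0277).

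Besides *Gpat3*, *Ubd* was classed as narrowed, although its difference changed sign, because the difference after SBR did not pass. *Ubd* (chromosome 17, 37193892 to 37196095) encodes the ubiquitin-like modifier FAT10, which is induced by interferon. It was 5.85, 3.38, 3.90 and 5.11 in SBR duodenum and 1.61, 3.48, 5.09 and 3.70 in SBR ileum, which overlapped. The sham duodenum, at 0.62, 1.27 and 0.84, lay below the sham ileum, at 5.36, 5.08 and 5.40. The difference was -4.37 in sham and 1.09 (limma adjusted p = 0.142) after SBR, a change of 5.46 (95% interval 3.47 to 7.45, limma adjusted p = 0.0277). MHC class II genes, which share this inducer, varied between the same libraries, and a part of interferon in the change of *Ubd* was not tested. *H2-Aa* was 7.35, 6.11, 4.78 and 5.85 in SBR duodenum and 4.77, 7.27, 8.19 and 7.35 in SBR ileum, and its change of 1.57 did not pass (limma adjusted p = 0.473). The difference of *H2-Aa* was -0.87 after SBR, or 0.06 with centring, and -2.44 in sham.

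**Figure D4:**
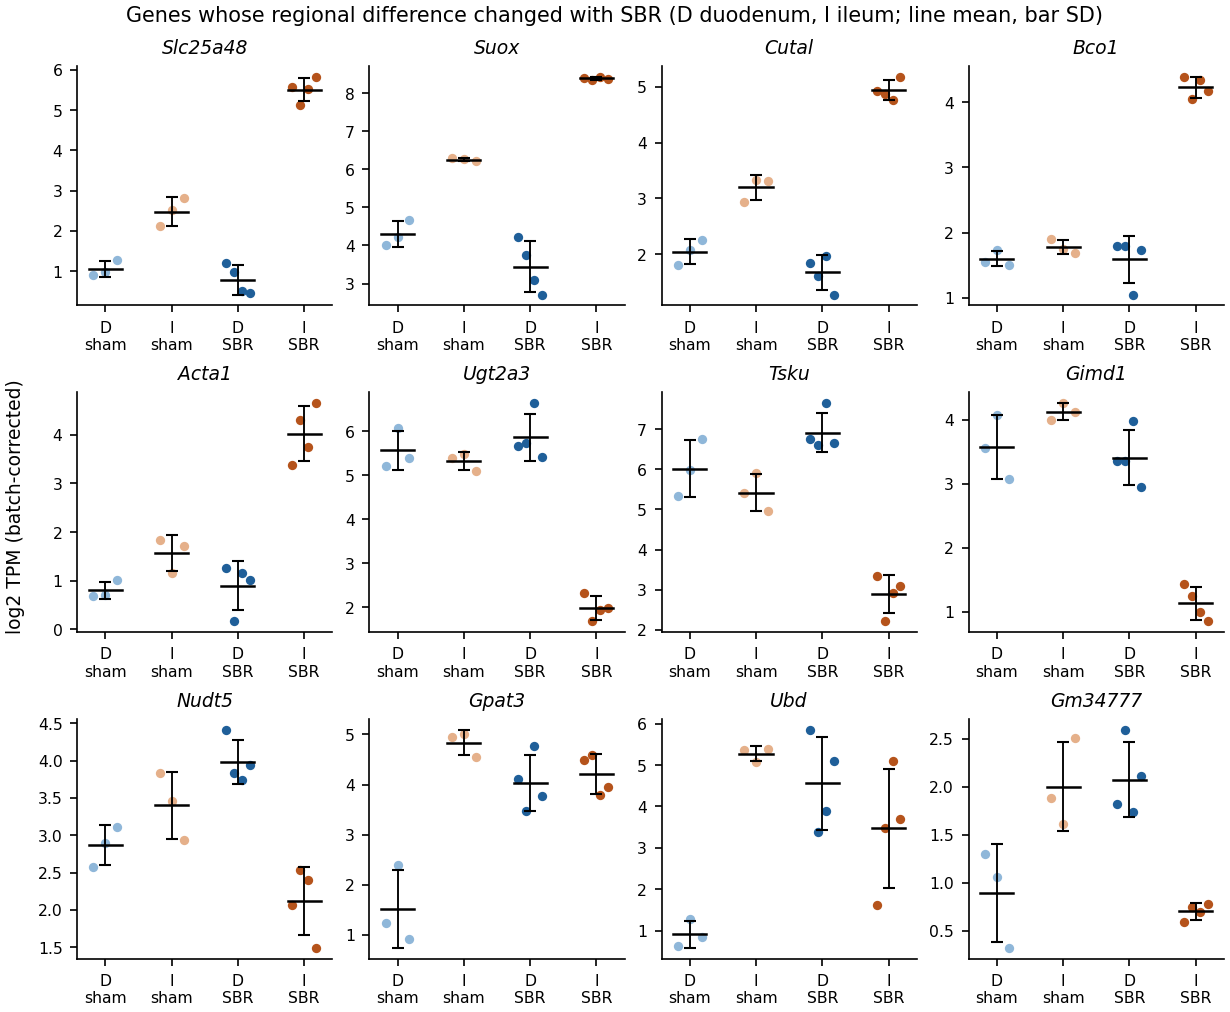
The 12 genes whose regional difference changed with SBR (limma adjusted p under 0.05), in batch-corrected log2 TPM in each vehicle library (D, duodenum; I, ileum; points, libraries; lines, means; bars, SD). In 10 of the panels the SBR ileum stands apart from the sham ileum, and in *Gpat3* and *Ubd* the sham duodenum lies below the other groups.

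There were 7 genes that passed in both comparisons with opposite signs. *Cldn2*, which encodes a pore-forming claudin of leaky epithelia, was 6.27, 5.44, 3.01 and 5.12 in SBR duodenum and 6.77, 6.78, 7.4 and 7.67 in SBR ileum, against 6.44, 5.21 and 5.93 and 3.62, 3.62 and 4.09 in sham. The ileum lay below the duodenum in sham and above it after SBR. The difference was 2.08 in sham (limma adjusted p = 0.0384) and -2.19 after SBR (limma adjusted p = 0.00319), and the change of -4.27 (SE 0.87) fell just outside the threshold as deposited (limma adjusted p = 0.0673) and passed with centring (0.043). *Mbl2*, which encodes mannose-binding lectin C, went the other way, from -2.30 to 2.36 (change 4.66, limma adjusted p = 0.0688), with 3.38, 4.39, 4.17 and 2.80 in SBR ileum against 8.42, 8.43 and 7.34 in sham ileum. *Rap1gap*, a Rap1 GTPase-activating protein, went from 1.63 to -1.57 and *Gltpd2*, a glycolipid transfer domain gene, from -2.39 to 1.58. The transcript *Gm34777* (a lincRNA), with -1.11 and 1.36, was the only one of the 7 to pass the test of the change itself (2.47, limma adjusted p = 0.0315).

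Crypt and cell cycle genes were ileal after SBR. Of 20 tested cell cycle and DNA replication genes, 19 were higher in the ileum after SBR (16 after centring) and 1 in sham. Of all genes, 50.2% were higher in the ileum after SBR (14.5% after centring) and 10.8% in sham. The medians were -1.91 and -0.85. *Mki67*, the proliferation marker Ki-67, was 3.08, 2.22, 1.72 and 1.5 in SBR duodenum and 4.55, 4.12, 4.64 and 4.41 in SBR ileum, against 3.64, 3.54 and 3.37 and 4.59, 4.80 and 4.11 in sham. All SBR duodenal values were below the sham duodenum, and the ileal values overlapped. The difference was -2.30 (limma adjusted p = 4.67e-05) after SBR and -0.98 (limma adjusted p = 0.112) in sham, and the change of -1.31 did not pass (limma adjusted p = 0.334). Unadjusted, 11 of the 20 had a p under 0.05 for the change, all toward the ileum (11.2% of all genes). This count was 3 after centring or quantile normalization and 15 with protein-coding genes rescaled. *Mcm6*, a subunit of the replicative helicase, differed by -2.11 after SBR and -0.99 in sham. Of 14 stem cell and Wnt target genes, 12 were higher in the ileum and 1 in the duodenum after SBR (9 and 1 after centring), compared with 3 and 1 in sham and with the same shares of all genes. *Lgr5*, the marker of crypt base stem cells, differed by -1.82 (limma adjusted p = 1.03e-05) after SBR and -1.03 in sham, and *Olfm4* by -2.02 and -0.95. All 3 tested *Hox* genes were higher in the ileum after SBR (2 after centring), *Hoxb6* by -3.05 after SBR and -1.53 in sham.

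Cholesterol synthesis genes were also ileal after SBR. Of 23 tested genes of cholesterol synthesis and uptake, 21 were higher in the ileum after SBR (17 after centring, with 1 higher in the duodenum), whereas in sham 6 were higher in the ileum and 1 in the duodenum. These counts stand beside 50.2% of all genes ileal after SBR (14.5% after centring) and 10.8% in sham. The medians were -2.48 and -0.86. *Hmgcs1*, which encodes the synthase that feeds the mevalonate pathway, was 6.86, 4.71, 5.70 and 4.95 in SBR duodenum and 8.46, 9.20, 8.40 and 7.60 in SBR ileum, against 5.39, 5.67 and 4.87 and 6.51, 6.26 and 5.72 in sham. Every SBR ileal library lay above every other library. The difference was -2.86 (limma adjusted p = 4.56e-05) after SBR and -0.86 (limma adjusted p = 0.256) in sham, with a change of -2 (limma adjusted p = 0.273). *Sqle*, which encodes squalene epoxidase, differed by -2.98 and -2.01. For the list, the median change was -1.49, 10 genes had an unadjusted p under 0.05 toward the ileum (11.2% of all genes) and 0 passed after adjustment with limma (1 with quantile normalization or rescaled protein-coding genes). Of 13 tested LXR targets, 9 were higher in the ileum after SBR (5 after centring), where 50.2% of all genes were, and 3 in sham. *Abca1*, the cholesterol exporter, had -1.64 after SBR and -3.47 in sham, and *Abcg5*, a sterol exporter subunit, had -0.29 after SBR, or 0.64 with centring.

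Genes of fatty acid oxidation and of xenobiotic metabolism were more often duodenal than ileal. The counts in this paragraph stand beside 6.77% of all genes duodenal and 50.2% ileal after SBR (16.6% and 14.5% after centring). In sham these shares were 3.83% and 10.8%. Of 21 PPAR alpha targets, 6 were higher in the duodenum and 1 in the ileum after SBR (13 and 0 after centring), compared with 10 and 0 in sham, and the medians were 0.85 and 1.65. The mean of the list was 6.56 in SBR ileum 4, above the 4.75 to 5.32 of the other SBR ileal libraries and the 5.73 to 6.33 of SBR duodenum, and without this library 11 were higher in the duodenum and 1 in the ileum, with a median of 1.01. *Cpt1a*, the carnitine palmitoyltransferase that admits fatty acids to mitochondria, had -0.49 after SBR (0.44 after centring) and 1.68 in sham. Of 36 xenobiotic genes, 24 were higher in the duodenum and 5 in the ileum after SBR (25 and 1 after centring), compared with 16 and 5 in sham, and the medians were 1.77 and 0.73. *Cyp3a11*, an inducible cytochrome P450, was 7.43, 8.93, 8.51 and 9 in SBR duodenum and 4.14, 3.52, 2.91 and 4.49 in SBR ileum, a difference of 4.70 (limma adjusted p = 2.7e-07) after SBR and 2.34 (limma adjusted p = 0.00744) in sham. *Cyp2b10* had 2.80 and 0.05, with a change of 2.76 (limma adjusted p = 0.201). The carboxylesterase gene *Ces2a* went against the list as deposited, with -1.03 and -1.55. Its value after SBR ranged from -1.24 to -0.10 across the alternative settings and passed in 17 of 21. Of 17 retinoid genes, 8 were higher in the duodenum and 6 in the ileum after SBR (9 and 1 after centring), and *Rbp2*, the cellular retinol binding protein of enterocytes, differed by 1.86 and 0.97.

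**Figure D5:**
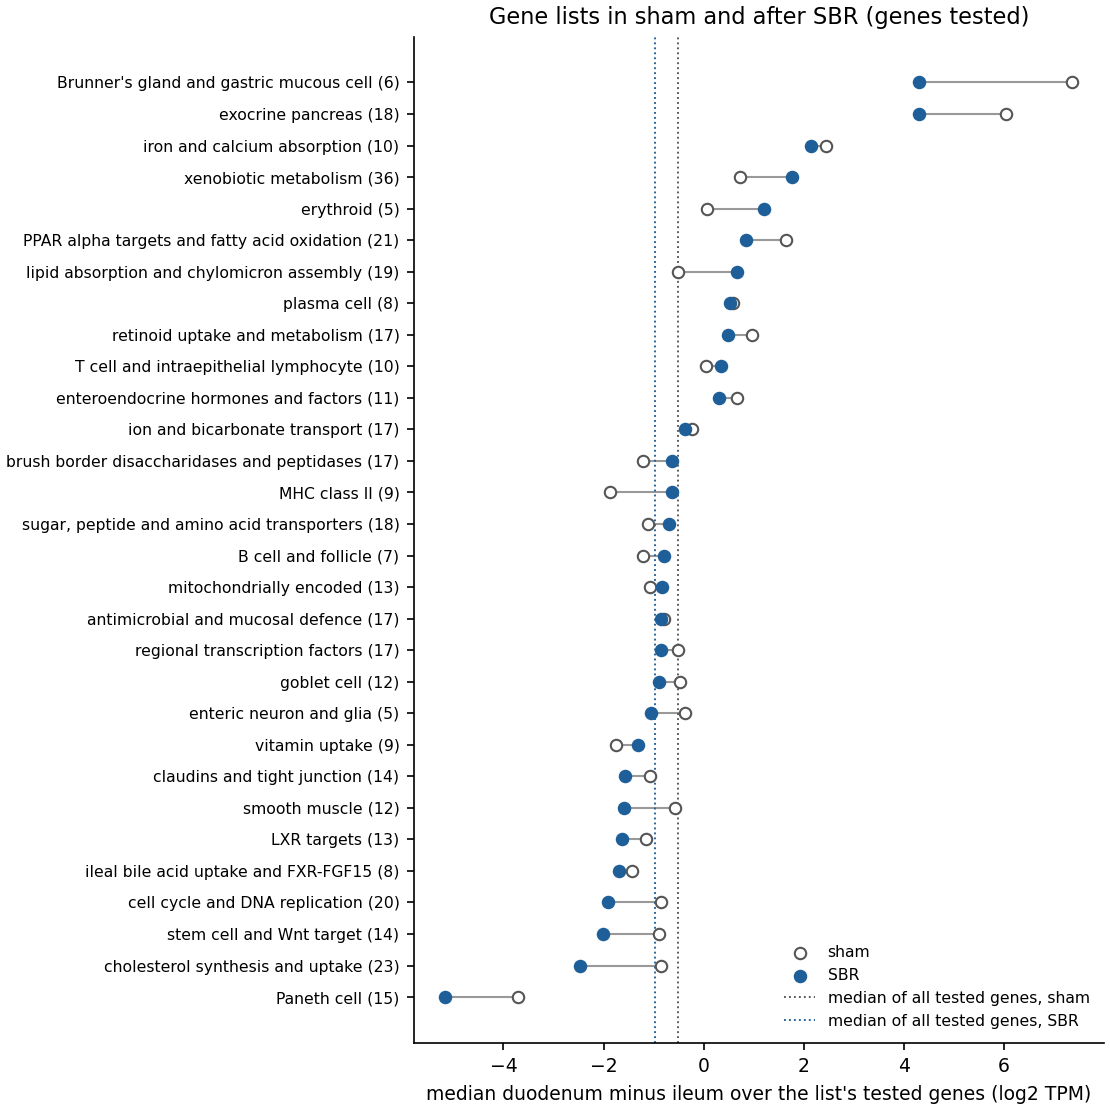
Median duodenum minus ileum difference (log2 TPM) over the tested genes of each list, in sham (open circles) and after SBR (filled circles), with the number of genes in parentheses and the medians of all genes, -0.519 and -0.976, as dotted lines. Lipid absorption moved from -0.52 to 0.67, whereas cholesterol synthesis moved from -0.86 to -2.48 and Paneth cell genes from -3.71 to -5.16.

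Immune cell lists had few genes past the test as deposited. No list of T cell, B cell or plasma cell genes had more than 1 gene past the test after SBR as deposited, of 10, 7 and 8 tested. After centring, 10, 0 and 6 were higher in the duodenum, beside 16.6% of all genes. *Cd3e*, a T cell receptor subunit, had 0.12 after SBR, *Gzma*, a granzyme of cytotoxic lymphocytes, had 0.67 (limma adjusted p = 0.0556), and *Jchain*, which joins immunoglobulin A, had 0.47. Of 9 MHC class II genes, 1 was higher in the ileum after SBR (0 after centring), *Ciita*, their master regulator, with -0.99. *Ciita* passed in 5 of 20 alternative settings, with values from -1.33 to -0.06. Of 17 antimicrobial genes, 3 were higher in the duodenum and 8 in the ileum, a share near the 50.2% of all genes (5 and 5 after centring). *Saa1*, which encodes serum amyloid A, was between 1.03 and 1.77 in SBR duodenum and between 6.62 and 7.65 in SBR ileum, a difference of -5.63 after SBR and -5.02 in sham. *Reg3b* and *Reg3g*, bactericidal lectins, had -0.85 and -1.35 after SBR, of which *Reg3b* was 0.08 with centring. *Reg3g* ranged from -1.5 to -0.41 across the alternative settings and passed in 19 of 21. Of 12 goblet cell genes, 10 were higher in the ileum after SBR, but 2 after centring, 3 after quantile normalization and 5 with protein-coding genes rescaled. *Muc2*, the main secreted mucin, had -1.55 as deposited and -0.62 with centring, and *Clca1*, a mucus-processing protease, -0.80 and 0.13. All 12 smooth muscle genes were higher in the ileum after SBR, but 2 after centring, 3 after quantile normalization and 8 with protein-coding genes rescaled, with *Myh11*, the smooth muscle myosin heavy chain, at -1.7 and *Des*, which encodes desmin, at -1.60 as deposited. Of 14 claudin and tight junction genes, 9 were higher in the ileum, again beside 50.2% of all genes (3 after centring, with 2 higher in the duodenum), and *Cldn15*, a paracellular cation channel, had 0.45. Among the remaining lists, 4 of 5 enteric neuron and glia genes, 1 of 5 erythroid genes and 2 of 3 white adipose genes were higher in the ileum, beside 50.2% of all genes (1, 0 and 1 after centring), 1 erythroid and 1 adipose gene were higher in the duodenum, and of 13 mitochondrially encoded genes 0 passed limma's test, with 0 at an unadjusted p under 0.05.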

How the data were processed

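The authors depleted total RNA of ribosomal RNA with RNase H and primed cDNA with random hexamers. They aligned reads with STAR to GRCm38 with Ensembl annotation, counted uniquely aligned, unambiguous reads with featureCounts, normalized by trimmed means (TMM) and deposited log2 TPM after batch correction with ComBat (sva). That correction shifts and rescales each gene within a batch, so values can be negative and levels are not compared between genes. Depth is unknown and no counting interval is given. The deposited log2 values of 22 intestinal libraries were used as given, and 18 value columns (liver) were not.

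A model with 1 mean per group was fitted over genes with a mean of at least 1 with limma 3.58.1 (R 4.3.3), which let the prior variance follow the mean level. P-values were adjusted over all genes after Benjamini and Hochberg. Duodenum minus ileum after SBR, the same in sham, and the change between them were tested. On simulated data over 15923 genes, 74% of SBR differences of 2 log2 units and 93% of 3 were recovered, and 25% and 63% of changes of these sizes. Single genes also got two-sided exact permutation tests. Alternatives were centring, quantile normalization, other filters and pseudocounts, library weights, an unmoderated test, the vehicle libraries alone, a replicate block, leaving out each library and, added after seeing the data, rescaling protein-coding genes and leaving out 2 libraries together.

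Genes named were those marked for their known role in each list, the 6 with the largest difference in each direction among genes that passed without overlap, and the 6 of each sign with the smallest p for the change, leaving out unnamed transcripts, immune receptor segments and pseudogenes. The members and lists were chosen with earlier results of these data known. Some genes are not reported here.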

Additional observations from a re-analysis of the deposited data

Results flagged for a closer look

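Of 160 sets of 4 libraries examined for the named genes, 19 (11.9%) held a library far from the other 3, where chance gives about 1 in 20. SBR ileum library 2 stood apart for *Pdx1* (0.47 log2 TPM), *Tmprss15* (0.55), *Akp3* (3.21) and *Sult6b2* (1.57), all duodenal genes that it listed above the other ileal libraries, and for *Mmp7* (6.38), *Olfm4* (3.41) and *Abca1* (4.07). SBR duodenum library 3 stood apart for *Amn* (3.45), *Abca1* (4.12), *Bco1* (1.05), *Defa20* (0.31), *Defa32* (0.31) and *Tsku* (7.65). SBR ileum library 1 stood apart for *Pyy* (4.17) and *Muc2* (6.02), SBR ileum library 3 for *Npc1l1* (4.46), *Prss2* (-0.94) and *Cldn15* (4.20), and SBR duodenum library 2 for *Gzma* (3.94).

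The regional difference itself differed between sham and SBR for 12 genes by the test of the change, with limma. The change was toward the duodenum for *Ubd* (5.46), *Ugt2a3* (3.64), *Tsku* (3.43), *Gpat3* (3.14), *Gimd1* (2.84), *Gm34777* (2.47) and *Nudt5* (2.40). It was toward the ileum for *Slc25a48* (-3.28), *Suox* (-2.99), *Bco1* (-2.46), *Acta1* (-2.34) and *Cutal* (-2.11).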

How the results depend on the processing

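The direction of regional calls depended on the scale, and the number of changes on single libraries. The main counts were 9068 after SBR, 2331 in sham, 1962 shared with the same sign, and 12 changes. Centring gave 4948 calls after SBR (2637 higher in duodenum, 2311 in ileum), 1177 and 843 by direction in sham, and 60 changes. Quantile normalization gave 5393 after SBR (2407 and 2986), 1259 and 1079 in sham, and 78 changes. Rescaled protein-coding genes gave 5073 calls higher in the ileum after SBR, 1006 and 889 in sham, and 128 changes. A filter at a mean of 3, which tests fewer genes, gave 4826 after SBR (4087 ileal), 1434 in sham (1025 ileal), 1201 shared and 4 changes. Library weights gave 5549 calls in sham (1063 and 4486), 4712 shared and 1989 changes. The unmoderated test gave 1069 in sham (247 and 822) and 885 shared. A pseudocount of 5 gave 22 changes, the 14 vehicle libraries alone 3, and leaving out both SBR duodenum 3 and SBR ileum 2 gave 1. Of the 12 changes, 11 passed after centring, 11 after quantile normalization, 12 with weights, 3 with the vehicle libraries alone and 4 at the higher filter. With the replicate number as a block, 0 changes passed. The labels name no shared animal, and the correlations of same-numbered duodenal and ileal deviations were 0.36, 0.07 and 0.45 in sham and 0.13, -0.0026, -0.14 and 0.083 after SBR, with 4 of 7 best for their own number. Since not every correlation exceeded 0.1, the numbers were not taken as pairs.

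Leaving out 1 library in turn gave between 7587 (without SBR duodenum 2) and 9734 (without SBR duodenum 1) calls after SBR, 944 to 1058 higher in the duodenum and 6533 to 8783 in the ileum. In sham it gave 1260 (without sham ileum 2) to 1844 calls, 415 to 601 higher in the duodenum and 820 to 1413 in the ileum. Shared calls ranged from 1109 to 2408 and changes from 1 to 229.

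Some small differences after SBR turned sign. With centring they became *Cdx1* 0.14, *Npc1l1* 0.05, *Sis* 0.25, *Slc15a1* 0.10, *Cftr* 0.60, *Sct* 0.19, *Clca1* 0.13, *Reg3b* 0.08, *H2-Aa* 0.06, *Abcg5* 0.64, *Cpt1a* 0.44 and *Gpat3* 0.75. With quantile normalization they became *Cdx1* 0.15, *Sis* 0.01, *Slc15a1* 0.09, *Cftr* 0.61, *Sct* 0.20, *Abcg5* 0.36 and *Gpat3* 0.70. With rescaled protein-coding genes they became *Cftr* 0.13, *Abcg5* 0.21, *Cpt1a* 0.03 and *Gpat3* 0.31. Without 1 library, *Cd3e* ranged from -0.06 (SBR ileum 1 left out) to 0.24, *Abcg5* from -0.84 to 0.14 (SBR duodenum 2), *Gpat3* from -0.43 to 0.00 (SBR duodenum 2) and *Cpt1a* from -0.82 to 0.06 (SBR ileum 4), and *Slc36a1* was -0.22 and -0.03 (SBR duodenum 3, SBR ileum 3). Without both libraries named above *Slc36a1* was -0.24. Over all alternatives for the named genes, 1949 values of the SBR difference kept direction and side of the threshold, 29 newly passed, 81 no longer passed and 30 reversed. For the change, 625 kept both, 64 newly passed, 131 no longer passed and 0 reversed. The causes were not tested.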
